A study of Ovis aries with 3 samples.

Results

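Simple epithelial keratins are the intermediate filament proteins of single-layered epithelia such as trophectoderm, the outer epithelium of the conceptus (the embryo with its membranes). The rule took every row of the deposited table named KRT8, KRT18, KRT7 or KRT19, and every row without a symbol whose description names 1 of these 4 keratins. It found 2 rows among 25197, KRT8 (ENSOARG00000016786) and KRT7 (ENSOARG00000017187), and no row without a symbol. No row matched KRT18 or KRT19, so these genes were not analysed here. The comparison was with the other 38 rows whose symbol is KRT and a number.

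The RNA came from extracellular vesicles (small particles shed by cells and bounded by a membrane) of sheep conceptuses (Ovis aries) taken at day 14 of pregnancy. Intact conceptuses were kept singly for 24 h in 10 ml of DMEM/F-12 that held insulin and 10% fetal bovine serum depleted of exosomes. Vesicles were precipitated from the filtered medium, and 5 ng of total RNA went into each SMART-Seq v4 library. All 3 libraries belonged to 1 group, there was no control group, and no library is tied to an animal in the labels, so the replicate error may include technical variation. The vesicles were pooled by precipitation from the whole medium, and a change in the number of vesicles from a cell type cannot be told apart from a change in the RNA per vesicle.

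Keratin filaments are built from pairs of a type I and a type II chain. KRT8 and KRT7 are type II keratins, and KRT18 and KRT19 are their usual type I partners in simple epithelia. KRT8 and KRT18 are among the earliest keratins made in the mammalian embryo and are widely used as trophectoderm markers, while KRT7 is a common marker of trophoblast. Extraembryonic endoderm and the epithelium that lines the uterus make simple keratins as well, so these genes do not by themselves tell those epithelia apart.

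KRT8 was an abundant transcript of the vesicles in every library. Its value was 26.3, 138.9 and 27.3 in libraries 1, 2 and 3, in RPKM-type units (reads scaled for gene length and library depth). Library 2 stood far above the other two, which were nearly alike. The mean was 64.2 ± 64.7 (SD, n = 3), an SD as large as the mean, and without library 2 the mean was 26.8. Only 39 rows (0.155% of 25197) had a mean at or above that of KRT8, itself included. Within the libraries KRT8 ranked 87th, 30th and 27th among all rows. Its share of the summed value of the library was 0.150%, 0.347% and 0.286%, so library 1, not library 3, held the lowest share and rank.

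KRT7 was near the floor of the table in libraries 1 and 3. Its value was 0.1, 1.9 and 0.1 in libraries 1, 2 and 3, a mean of 0.70 ± 1.04 (SD, n = 3). The value of library 2 alone set this mean, which was 0.1 without it. Among 481 olfactory receptor rows, taken as a measure of background since these genes act in sensory neurons, 331, 2 and 315 had a value at or above that of KRT7 in libraries 1, 2 and 3. KRT7 was therefore within that background in libraries 1 and 3, and in library 2 it equalled the highest olfactory receptor value, 1.9. KRT8 was above every one of the 481 rows in each library, with a highest background value of 3.4.

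The reads behind these values can be given only roughly, because gene lengths were not used. The step between values in copies of the U6 small nuclear RNA put the worth of 1 read at about 0.424, 0.533 and 0.451 in the respective libraries. In a gene 10 times as long as U6, the KRT8 values would stand for about 620, 2606 and 605 reads. The KRT7 values would stand for about 2.36, 35.6 and 2.22 reads. At that assumed length, counting error would be small for KRT8 and too large for KRT7 in libraries 1 and 3 to separate its level from 0. The true lengths were not used, so the size of this error was not measured.

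Within each library KRT8 exceeded KRT7. The difference of log2(value + 1) was 4.63, 5.59 and 4.69 in libraries 1, 2 and 3, with a mean of 4.97 ± 0.54 (SD, n = 3). It was above 0 in 3 of 3 libraries (exact sign-flip permutation test, two-sided, p = 0.25, which is the smallest that 3 libraries allow; 1 pair compared, adjusted p = 0.25). As a plain ratio, KRT8 was 263, 73.1 and 273 times KRT7. The deposited 0.1 can be any value from 0.05 to 0.15, so the ratio lay between 175 and 527 in library 1 and up to 547 in library 3. The unit is not named and was inferred, so these comparisons of KRT8 with KRT7 hold only if the values are scaled for gene length.

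**Figure D1:**
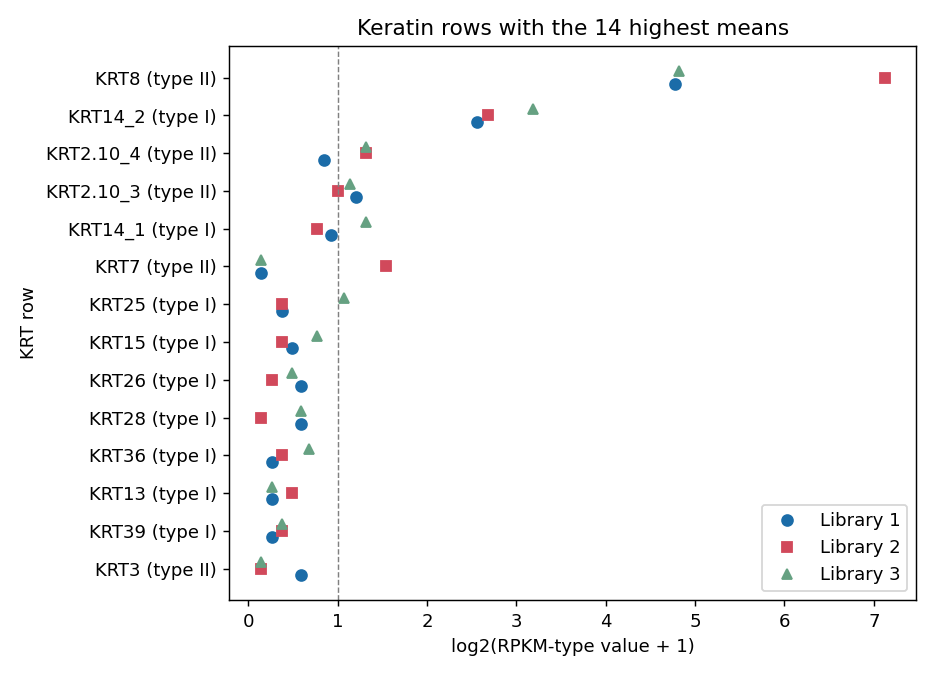
Keratin rows with the 14 highest means, as log2(RPKM-type value + 1) on the horizontal axis, with 1 point for each library and the dashed line at a value of 1. KRT8 stands apart from every other row in all 3 libraries, and KRT7 passes the line in library 2 alone.

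Detection was defined as a value of at least 1 in each of the 3 libraries. Of the 2 simple keratins KRT8 was detected and KRT7 was not, and of the other 38 KRT rows 2 were detected, against 3.89% of all 25197 rows (981). These were KRT14_2 and KRT2.10_3. In single libraries a value of at least 1 was the criterion, and by it 3, 5 and 6 of the 40 KRT rows were present in libraries 1, 2 and 3, against 9.37%, 13.6% and 7.88% of all rows. The median value of the other 38 KRT rows was 0.1 in each library, as was the median of all rows. Of these 38 rows, 33 stayed below 1 in every library and 5 were listed at 0 in all 3.

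KRT14_2 had the next highest level among the keratins. The symbol names KRT14, a keratin of the basal layer of stratified epithelium, but the description of the row is keratin 17, and the reads of such closely related genes may be divided among their rows. Its value was 4.9, 5.4 and 8.1 in libraries 1, 2 and 3, a mean of 6.13 ± 1.72 (SD, n = 3). Library 3 was the highest here and library 2 was not, unlike KRT8. The mean of KRT8 was 10.5 times that of KRT14_2, but this ratio was 5.37, 25.7 and 3.37 within libraries 1, 2 and 3.

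Other keratins stayed close to a value of 1 or below. KRT2.10_3, described as the hair keratin 83, stood at 1.3, 1 and 1.2, and KRT2.10_4, described only as an uncharacterized protein, at 0.8, 1.5 and 1.5. The 99th percentile of the olfactory receptor rows was 1.44, 1.02 and 1.74 in libraries 1, 2 and 3. KRT2.10_3 lay below that percentile in every library, although it met the rule for detection. KRT14_1, described as keratin 14, stood at 0.9, 0.7 and 1.5.

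The remaining classes gave little signal. Of 16 rows for keratins of stratified epithelia, 1 was detected, KRT14_2, and after KRT14_1 the next was KRT15, a basal-layer keratin, at 0.4, 0.3 and 0.7. Of 14 rows classed by symbol as keratins of hair and its sheath none was detected. KRT25 (0.3, 0.3 and 1.1), KRT26 (0.5, 0.2 and 0.4) and KRT28 (0.5, 0.1 and 0.5), all of the inner root sheath, led these 14. KRT2.10_3, the detected row described as hair keratin 83, was left unclassed because of its symbol and is not among them. Of 3 further rows for keratins of simple or other epithelia none was detected. KRT23 stood at 0.3, 0.1 and 0, the intestinal KRT20 at 0, 0 and 0.1, and KRT80 at 0 in each library. Another 5 rows described as keratins, all of hair, carry no KRT symbol, and the highest value among them was 0.8.

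By filament type, KRT8 made up most of the keratin signal. The 21 type II rows summed to 29.9, 144.1 and 31.2 in libraries 1, 2 and 3, and to 3.6, 5.2 and 3.9 without KRT8. The 19 type I rows summed to 8.9, 8.9 and 14.4, and to 4, 3.5 and 6.3 without KRT14_2. KRT8 alone took 67.8%, 90.8% and 59.9% of the summed value of all 40 KRT rows. The excess of type II over type I describes the rows measured, since KRT18 and KRT19, the usual type I partners of KRT8, entered neither sum.

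**Figure D2:**
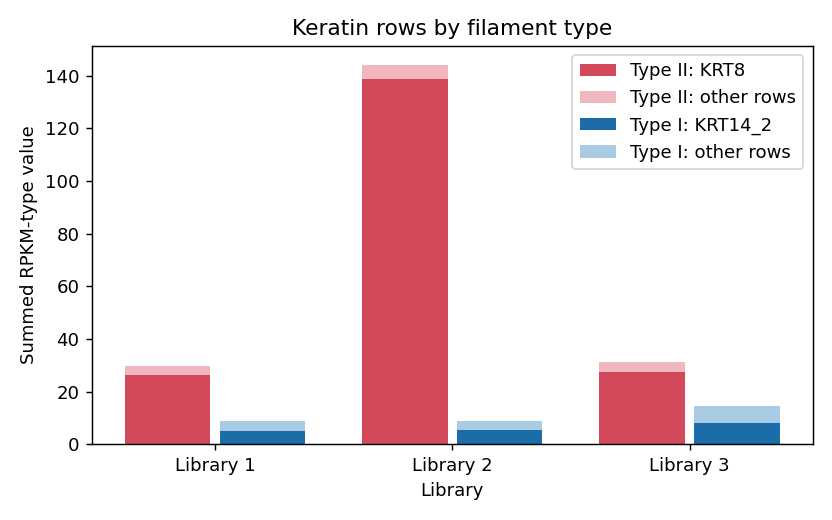
Summed RPKM-type values of type II (red) and type I (blue) keratin rows in each library, with the leading row of each type in the darker shade. KRT8 fills most of the type II bar and is highest in library 2, while the type I bar is 8.9 in libraries 1 and 2 and 14.4 in library 3.

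KRT8 was also set beside its neighbouring genes, of which KRT18 was not analysed. In the RefSeq gene table for sheep, which is of another assembly and was used for gene order only, KRT18 directly precedes KRT8 and the keratins KRT78, KRT79, KRT4 and KRT3 follow it. KRT78 stood at 0, 0 and 0.1, KRT79 at 0.2, 0.1 and 0.1, KRT4 at 0.1, 0.1 and 0, and KRT3, whose row is described as keratin 76, at 0.5, 0.1 and 0.1 in libraries 1, 2 and 3. Farther along the same cluster, KRT77 and KRT1 did not exceed 0.1 in any library. On the other side EIF4B, a translation initiation factor, stood at 2.8, 4.5 and 0.4. None of the measured neighbours within this stretch came near the level of KRT8, which only 0.155% of all rows reached or passed by mean.

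The high value of KRT8 in library 2 was in part shared with other transcripts. Of the 981 detected rows, 742 (75.6%) had their highest value in library 2, as did KRT8. The summed value of library 2 was 2.29 times that of library 1 and 4.20 times that of library 3, while KRT8 was 5.28 and 5.09 times as high. On the log2(value + 1) scale KRT8 was higher by 2.36 in library 2 than in library 1, where the median of the detected rows was 0.98 and 97.0% of them had a smaller difference. Against library 3 the difference was 2.31, with a median of 1.20 and 77.8% of rows below it. Between libraries 1 and 3 KRT8 differed by -0.05, near the median of 0.20.

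The spread of KRT8 over libraries was larger than that of most detected rows before scaling. Its SD of log2(value + 1) was 1.35, above that of 85.4% of the 981 rows, whose median was 0.78. After each library was scaled to the median of its detected rows the SD of KRT8 was 0.63 and exceeded that of 60.2% of rows. For KRT14_2 the order was the other way, with an SD of 0.33 before scaling, above 18.5% of rows, and 0.88 after it, above 81.1%. Relative to the median detected row, KRT8 was 8.48, 20.1 and 10.9 times as high in libraries 1, 2 and 3, and KRT14_2 1.58, 0.783 and 3.24 times.

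**Figure D3:**
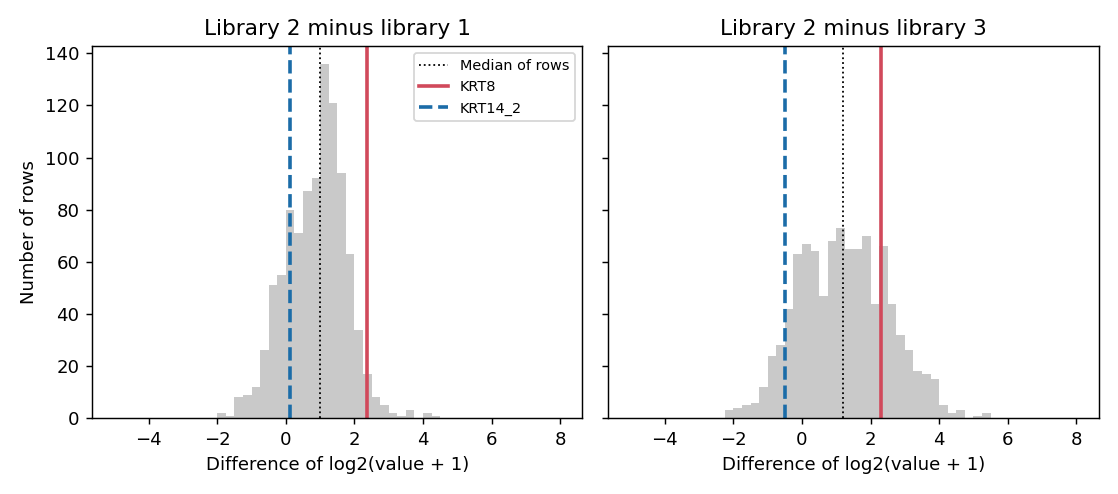
Difference of log2(value + 1) between library 2 and library 1 (left) and between library 2 and library 3 (right) for the 981 detected rows, as a histogram of rows. KRT8 (red line) lies to the right of the median (dotted) in both panels, above 97.0% and 77.8% of rows, and KRT14_2 (dashed blue) lies to the left of it.

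The rows whose pattern over the libraries was most like that of KRT8 were sought among 91 detected rows with a symbol and a mean of at least 16.0. Likeness was the root mean square difference of log2(value + 1), each row centred on its own mean, over 3 libraries, and with so few it is only a description. The closest was FTH1, the heavy chain of ferritin, at a distance of 0.09, with values of 146.9, 674.3 and 132. ATP5O, a subunit of ATP synthase, followed at 0.19 with 14, 58.1 and 10.7. DBI, an acyl-CoA binding protein, stood at 0.19 with 21.3, 83.6 and 16.7. TXN, the redox protein thioredoxin, was at 0.20 with 31.1, 123 and 23.6, and CAPG, an actin capping protein, at 0.24 with 9.3, 36.8 and 6.4. The median distance over the 91 rows was 0.67.

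Partners of keratin filaments in the cell had lower values than KRT8, as did nearly all rows, since only 0.155% had a mean at or above its own. Of 18 rows for desmosome proteins and plakins, which anchor keratin filaments at cell junctions, none was detected, which is near the 3.89% of all rows. DSP, the desmoplakin that binds the filaments, stood at 0.7, 0.3 and 0.8, and the plakoglobin JUP at 0.4, 0.6 and 0.7. PERP, a desmosome-associated membrane protein, stood at 0.4, 3.3 and 0.1, and was the only row of the list to reach 1 in any library. The list summed to 3.9, 6.6 and 3 in libraries 1, 2 and 3, below KRT8 alone in each.

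Of 13 rows for other intermediate filament proteins none was detected, again near the share of all rows. VIM, the vimentin of mesenchymal cells, stood at 3.4, 4.5 and 0.1, LMNA, a lamin of the nuclear envelope, at 0.2, 0.6 and 2, and NES, nestin, at 0.4, 0.3 and 0.5. VIM was thus lowest in library 3 and LMNA highest there, and neither pattern was that of KRT8.

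Among 18 rows for other junction proteins of epithelia, 1 was detected, near the 3.89% of all rows. This was EPCAM, an epithelial adhesion molecule, at 3.4, 6.5 and 1.2 in libraries 1, 2 and 3. The tight junction claudins CLDN6 (2.3, 4.8 and 0.6) and CLDN4 (0.8, 3.1 and 0.1) were also highest in library 2 and lowest in library 3. Of all detected rows, 75.6% were highest in library 2. KRT8 was 7.74, 21.4 and 22.8 times as high as EPCAM. The median log2(value + 1) of this list was 0.38, 0.93 and 0.14, against 0.14 for all rows in each library. In single libraries 5, 7 and 3 of its 18 rows were at 1 or more, against 9.37%, 13.6% and 7.88% of all rows. In at least 1 library 10 of the 18 reached 1, against 4519 of all 25197 rows. The list was chosen with earlier results of these data known, so these counts do not measure an excess.

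The label of trophectoderm was checked against its regulators. Of 20 rows for transcription factors of trophoblast none was detected, near the 3.89% of all rows, and GATA2 and OVOL1 were listed at 0 in all libraries. GATA3 stood at 0.9, 0.9 and 3, ELF5 at 1, 0.2 and 0.8 and KLF5 at 0.7, 0.8 and 0.4. The list summed to 5.9, 7.5 and 6, and 16 of its 20 rows stayed below 1 in every library, so these sums consist largely of values near the floor. The row TP-1, for interferon tau, the secreted product of ruminant trophectoderm, was added after its values were seen. It stood at 6.7, 26.2 and 4.7, and KRT8 was 3.93, 5.30 and 5.81 times as high.

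Other cell types that could share the medium were looked at with KRT8. Of 9 rows for genes of the uterine epithelium, 4 were detected, against 3.89% of all rows. The list was chosen with earlier results of these data known, so the count does not measure an excess of uterine transcripts. All 4 detected rows of the list were highest in library 2, as were 75.6% of all detected rows. They were the galectin LGALS15 (18.8, 74.2 and 4.5), the cystatin CST6, which blocks proteases (24.9, 49.1 and 1.1), the sodium pump regulator FXYD4 (10.4, 30.2 and 1.8) and IGFBP1 (5.6, 13.3 and 2.2), which binds insulin-like growth factors. The list summed to 60.7, 171 and 11 in libraries 1, 2 and 3. From library 1 to library 3 the sum differed 5.52-fold, while KRT8 stood at 26.3 and 27.3. These values are unscaled, and as a share of the summed value KRT8 was 0.150% in library 1 and 0.286% in library 3. No row of the list was at 0 in all libraries. The part of the uterine epithelium in the level of KRT8 was not tested in any library.

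Of 16 rows for extraembryonic endoderm, which also makes simple keratins, 2 were detected, against 3.89% of all rows. This list too was chosen with earlier results of these data known. APOA1, the main protein of high-density lipoprotein, stood at 6, 10.3 and 6.3, and the endocytic adaptor DAB2 at 1.1, 14.6 and 1.5. Both were highest in library 2, as were KRT8 and 75.6% of all detected rows, and nearly alike in libraries 1 and 3. APOA2, another apolipoprotein, stood at 0.9, 5.4 and 2.9. The list summed to 10.7, 32.7 and 13.4, AMN was at 0 in all libraries, and its part in the level of KRT8 was not tested.

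Markers of the epiblast, mesoderm and blood cells gave mostly low values, with counts of detected rows too small to set apart from the 3.89% of all rows. Some single values were above the highest olfactory receptor value of their library. These include AIF1 in library 3 (4.1 against 3.4), and AIF1 (2.8) and DNMT3B (2.2) in library 2, against 1.9. Of 9 epiblast rows 1 was detected, the pluripotency factor SOX2 (1.5, 1 and 1.6), followed by TDGF1 (0.6, 0.8 and 2.4) and DNMT3B (0.3, 2.2 and 0), with FGF4 at 0 in all and sums of 3.8 to 5.5. None of 13 rows for mesoderm and stroma was detected (sums of 1 to 2.7; COL1A2, PDGFRB and TBX6 at 0 in all). Its highest rows were FN1 (0, 0.1 and 1.7), DCN (0.3, 0.8 and 0.2) and LUM (0.1, 0.3 and 0.1), all of extracellular matrix. None of 12 leukocyte rows was detected (sums of 3.7 to 7; CD8A at 0 in all), and AIF1 (0.3, 2.8 and 4.1) and CD74 (1.5, 1.3 and 0.1) led it. None of 5 erythroid rows was detected (sums of 0.8 to 1.4), with EPB42 at 0.4, 0.9 and 0.5, HBM at 0.3, 0.3 and 0.2 and HEMGN at 0.1 in each library. Keratins of skin, a possible source through handling, are among the rows of stratified epithelia above. Of these 16 rows, KRT14_2, described as keratin 17, was above every olfactory receptor row in each library. KRT14_1 reached 1.5 in library 3, while the other 14 stayed below 1 in all libraries. Among these 14, KRT1 stood at 0, 0.1 and 0.1, KRT5 at 0, 0 and 0.1 and KRT10 at 0.1, 0.2 and 0.1. A source in skin was not tested.

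**Figure D4:**
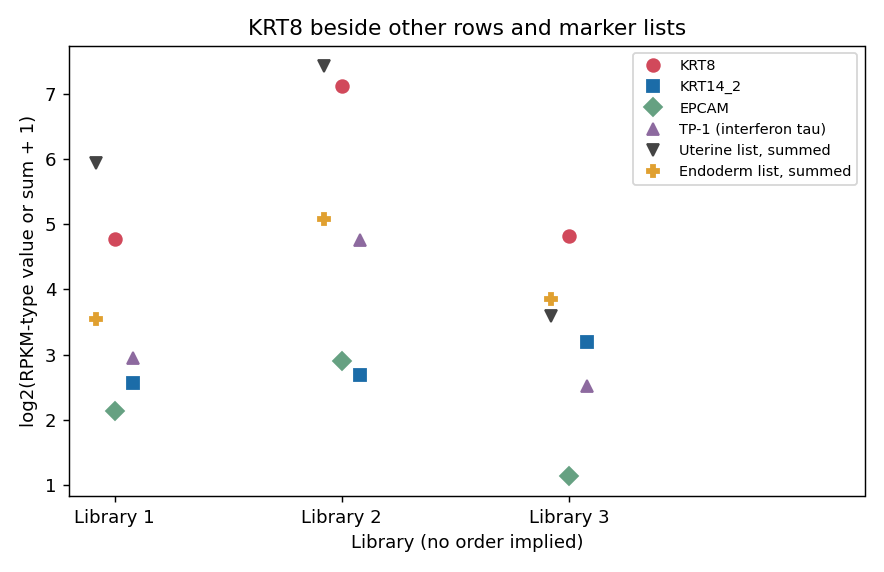
KRT8, KRT14_2, EPCAM and the interferon tau row TP-1 beside the summed values of the uterine epithelium and extraembryonic endoderm lists in each library, as log2(value or sum + 1). All but KRT14_2 are highest in library 2. In these unscaled values KRT8 is nearly level between libraries 1 and 3, where the uterine list falls from 60.7 to 11. As a share of the summed value KRT8 is 0.150% in library 1 and 0.286% in library 3. The part of the uterine epithelium in the level of KRT8 was not tested.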

How the data were processed

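The table deposited by the authors holds 25197 rows with 1 value per library, rounded to 1 decimal, and the authors' mean, which matched the 3 columns to within 0.0667. The unit is not named, and the deposited values were taken as RPKM because short genes step by more than long ones and the columns do not sum to a fixed total. FPKM would look alike. The submitters' processing notes name Oar_v3.1 as the genome build. No source used here names an aligner, a counter or an annotation version. Reads were 50 bp and paired, per the labels' protocols. Without gene lengths no whole reads could be derived, so count models were not used. Libraries 1, 2 and 3 summed to 17480.7, 40060.3 and 9531.8, with 2360, 3428 and 1985 rows at 1 or more.

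Columns were assigned by the titles of the samples. The members and all gene lists were chosen with earlier results of these data known. Named genes were the members, detected KRT rows (a value of at least 1 in each library), the 3 highest rows of each list and keratin class, and the 5 rows closest to KRT8 among those with at least 0.25 of its mean, while KRT2.10_4, TP-1, the neighbours of KRT8 and rows named for being at 0 were added after their values were seen. Differences use a pseudocount of 1, and the log2 scale understates those of low genes. Classes of keratin follow the symbol of the row. Alternatives were other detection values, pseudocounts, scalings and filters, and each library left out. No identifier (0) matched the RefSeq table by Ensembl number, and coordinates and sequences were not used. Calculations used Python 3.11.15 with pandas 2.3.3 and numpy 2.4.6, and the detection and distance steps were tested on simulated data. A further gene that the naming rule takes is not reported here.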

Additional observations from a re-analysis of the deposited data

How the results depend on the processing

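With 3 libraries the exact sign-flip test cannot give a p below 0.25, and single low values cannot be told from 0. No paired analysis was possible because there is 1 group, apart from the difference of KRT8 and KRT7, which was taken within libraries. Detected KRT rows numbered 3, and 5 at a value of 0.5 or more, 2 at 2 or more, 4 at 1 or more in at least 2 libraries, and 3 to 4 with a library left out. The mean of KRT8 ranged from 26.8 to 83.1 and that of KRT7 from 0.1 to 1 with a library left out. As shares of the summed value, brought to the mean library, they were 58.4 and 0.474. The log2 difference of KRT8 and KRT7 was 6.75 and 5.63 with pseudocounts of 0.1 and 0.5, and 4.66 to 5.14 with a library left out. With a pseudocount of 0.1 the same 5 rows were closest to KRT8. The SD of log2(value + 1) fell from 1.35 to 0.63 for KRT8 and from 0.81 to 0.52 for KRT7 after scaling. Among detected rows the mean rank of KRT8 was 48, as among all rows, and KRT7 moved from 6585 to 931, since fewer rows were ranked. Keeping only rows at 1 or more in at least 1 library raised list medians by construction, for all rows from 0.14 to 1.05. They became 1.91 for stratified and 0.61 for hair keratins, 1.21 for other intermediate filaments and 0.91 for desmosomes and plakins. They became 0.80 for trophoblast regulators, 1.02 for epiblast, 1.67 for extraembryonic endoderm, 0.52 for mesoderm and stroma, 3.32 for uterine epithelium and 0.79 for leukocytes. For junction proteins the median was 0.84 against 0.48. No member of the erythroid list or of the other simple keratins was left.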
